A study of Mus musculus with 12 samples.

Results

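The genes described here make, carry, sense and break down prostaglandins. They were named as 6 genes, Ptgs1, Ptgs2, Ptgis, Ptgds, Hpgd and Ptger4, and every probe set that the platform annotation pairs with one of these symbols was taken. Of the 16376 probe sets in the table, 8 belonged to 4 of the genes, with 2 each for Ptgs2, Ptgds, Hpgd and Ptger4. Ptgs1 and Ptgis had no probe set in the table and were not analysed here.

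Each of 12 arrays, read in 1 colour, measured an ovary of a female mouse aged 23 weeks and taken at diestrus as judged by vaginal smear. The 6 control ovaries were Pgrcre/+ without a tumor. The other ovaries were Pgrcre/+PgrBLsL/+, 3 at tumor stage I and 3 at stage II. All groups therefore carried Pgrcre, a Cre allele named for the progesterone receptor gene Pgr. Every ovary with PgrBLsL had a tumor stage, so allele and tumor cannot be told apart against controls. Values are the deposited log2 levels, on which a difference of 1 is a doubling. They are compared within a probe set only, because probe sets differ in brightness.

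Prostaglandins are short-range lipid signals made from arachidonic acid, which phospholipases A2 release from membranes. Cyclooxygenases, encoded by Ptgs1 and the inducible Ptgs2, turn it into a shared precursor, and terminal synthases then make the separate prostaglandins, which act on receptors of the cell surface. In the ovary the luteinizing hormone surge induces Ptgs2 in granulosa cells, prostaglandin E2 is needed for cumulus expansion and ovulation, and prostaglandin F2 alpha ends the life of the corpus luteum. Signalling stops when a carrier takes prostaglandins up and 15-hydroxyprostaglandin dehydrogenase, encoded by Hpgd, oxidises them.

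Across all 12 arrays the medians lay between 7.09 and 7.15 and the correlations between arrays between 0.967 and 0.997. Pgr separated the genotypes, with a log2 level of 3.74 to 4.60 in controls, 9.05 to 9.28 in stage I and 9.78 to 10.09 in stage II. Ovarian markers were measured on every array. The granulosa markers Inha and Gja1 had control means of 13.44 and 13.25, and the oocyte marker Zp3 had 9.29. Detection calls were not used here, and the lowest value in the table was 2.69.

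The promoters of 2 members are printed because Ptgds was the member that passed the test and Ptgs2 was the member that varied most from ovary to ovary. Each is 300 bases long, 250 before and 50 after the start that RefSeq gives on GRCm38.p6. The Ptgs2 promoter is on the plus strand at chr1:150099781-150100080 and the Ptgds promoter on the minus strand at chr2:25469700-25469999. Capitals mark matches on either strand to AGAACA, a core sequence of the elements bound by steroid receptors such as the progesterone receptor, to CACGTG, the E-box, or to TGACGT, part of the cyclic AMP response element.
Ptgs2: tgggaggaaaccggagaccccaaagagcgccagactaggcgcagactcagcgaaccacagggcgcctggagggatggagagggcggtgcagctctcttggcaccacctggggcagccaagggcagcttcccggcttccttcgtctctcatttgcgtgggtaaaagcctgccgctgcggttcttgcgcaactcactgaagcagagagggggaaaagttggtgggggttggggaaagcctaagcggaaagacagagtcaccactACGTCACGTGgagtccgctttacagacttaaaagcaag
Ptgds: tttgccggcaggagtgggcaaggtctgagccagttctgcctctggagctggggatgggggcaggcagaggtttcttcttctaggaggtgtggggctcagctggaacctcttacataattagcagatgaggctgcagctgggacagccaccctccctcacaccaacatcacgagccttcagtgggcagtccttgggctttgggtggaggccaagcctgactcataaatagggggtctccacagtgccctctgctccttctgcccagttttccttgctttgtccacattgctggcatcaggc
The Ptgs2 window held a match to TGACGT on the minus strand, whose first base is base 13 after the start, and an overlapping CACGTG at base 17. An E-box of the rat Ptgs2 promoter is known to be needed in granulosa cells. The Ptgds window held no match to the 3 motifs, nor did those of Hpgd and Ptger4. Of 32851 promoters of the same length, 19% held AGAACA, 7.15% held CACGTG and 7.51% held TGACGT.

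Among the 4 measured genes Ptgds alone passed the test, and only in stage II, where it was 1.72-fold higher than in controls. Ptgs2 ranged widely within each group, Hpgd was above every control in 2 of the 3 ovaries of each tumor stage, and Ptger4 was higher in stage I than in stage II on its brighter probe set without passing the test. Counting each gene by its probe set with the highest mean, limma called 0 of the 4 genes in stage I against control, where 0.201% of all 10949 genes were called. In stage II against control it called 1 of 4, higher, against 20.4% of all genes in either direction and 9.59% higher. In stage II against stage I it called 0 of 4, against 11.8% of all genes. With 4 genes, 1 call beside a background of 20.4% is no result about the genes as a group. At an unadjusted p under 0.05 the counts were 2, 2 and 1 of the 4 genes, beside 6.4%, 33.5% and 27.1% of all genes.

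**Figure D1:**
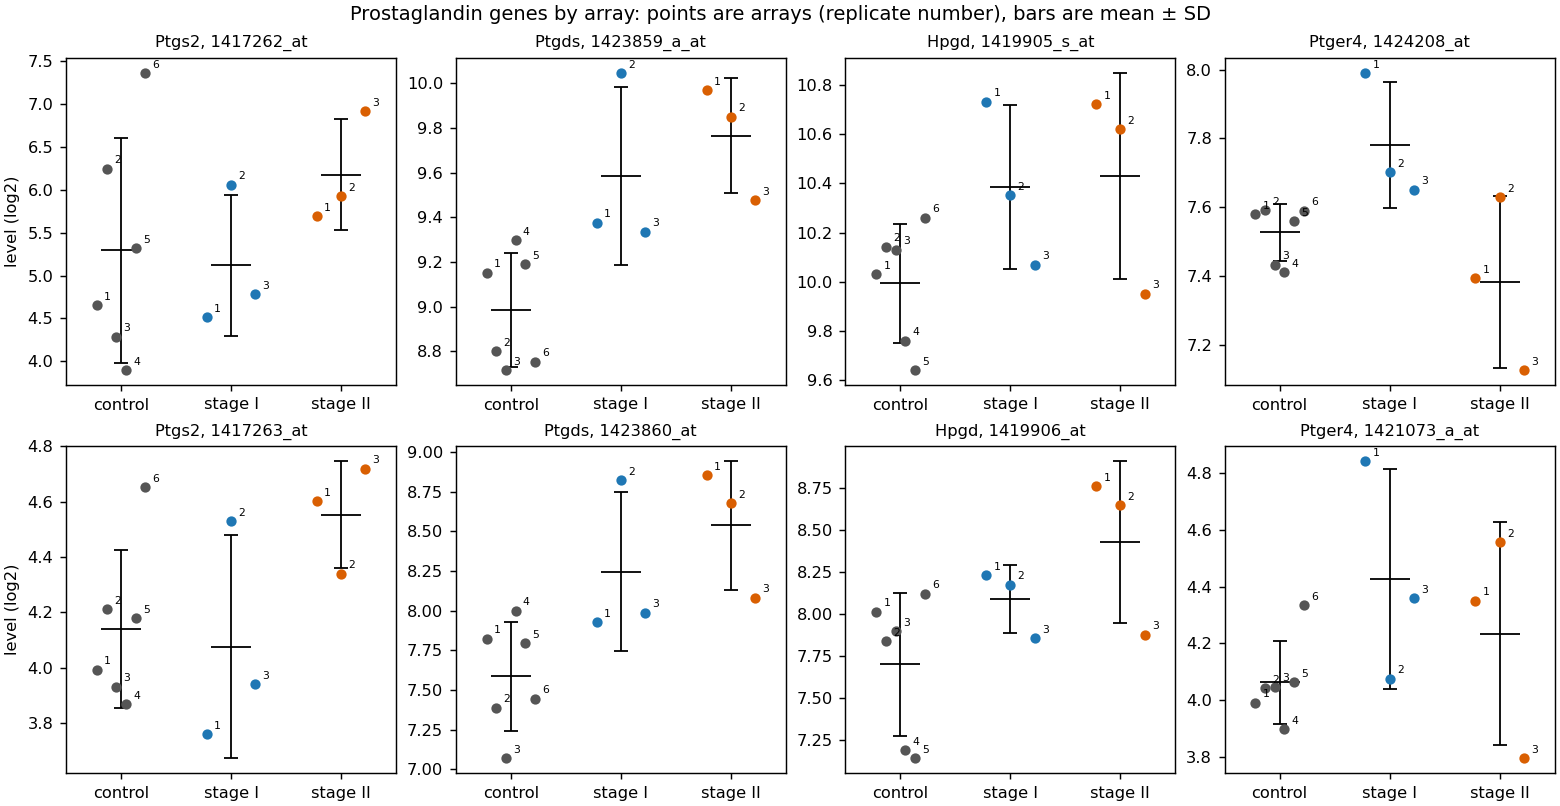
Log2 level of each of the 8 probe sets of Ptgs2, Ptgds, Hpgd and Ptger4 on every array, by group; numbers beside the points are replicates, and bars are the mean ± SD (6 control, 3 stage I and 3 stage II arrays). Ptgds in stage II lies above all controls on both probe sets, and Ptgs2 spreads from 3.90 to 7.36 within the controls.

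By probe set, 6 of the 8 were above control in stage I and 7 of 8 in stage II, with median log2 differences of 0.38 and 0.58 against medians of -0.0021 and -0.011 over all 16376 probe sets. Both comparisons share the same controls. The groups did not overlap for 2 of the 8 probe sets in stage I, against 3.54% of all probe sets, for 2 in stage II, against 20.7%, and for 1 between the stages, against 30.7%.

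Ptgs2 encodes cyclooxygenase 2, the inducible enzyme that commits arachidonic acid to prostaglandins. Its probe set 1417262_at read 4.66, 6.25, 4.29, 3.90, 5.32 and 7.36 in control replicates 1 to 6. Stage I replicates 1, 2 and 3 read 4.51, 6.06 and 4.79, and stage II replicates read 5.69, 5.92 and 6.91. The 3 stage II ovaries spread from 5.69 to 6.91, in the upper part of the control range, and the highest value of all was in control replicate 6. The mean level was 5.29 ± 1.31 in the 6 controls, 5.12 ± 0.82 in the 3 stage I ovaries and 6.18 ± 0.65 in the 3 stage II ovaries (± SD). Stage II differed from control by 0.88 ± 0.66 SE (95% interval -0.56 to 2.32, limma adjusted p = 0.40), and from stage I by 1.06 ± 0.77 (adjusted p = 0.43). The interval includes a modest fall and a rise of several fold, so these arrays set no close bound on Ptgs2 in stage II.

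The second Ptgs2 probe set, 1417263_at, was dim, between 3.76 and 4.72 on all arrays, and ordered the ovaries in a similar way. Control replicate 6, stage I replicate 2 and stage II replicates 1 and 3 were its 4 highest arrays. Its difference in stage II was 0.41 ± 0.19 SE (adjusted p = 0.15). Leaving out control replicate 6 brought that to 0.52 with an adjusted p of 0.049.

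Ptgds encodes lipocalin-type prostaglandin D synthase, a secreted enzyme that makes prostaglandin D2 and also carries small lipophilic molecules. On probe set 1423859_a_at the controls ran from 8.72 through a median of 8.98 to 9.30. Stage I read 9.38, 10.05 and 9.34 and stage II read 9.97, 9.85 and 9.48 in replicates 1, 2 and 3. All 6 ovaries with PgrBLsL lay above all 6 controls, stage I replicates 1 and 3 by a small margin, and the highest was stage I replicate 2.

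The group means of this Ptgds probe set were 8.99 ± 0.26 (SD, n = 6), 9.59 ± 0.40 (n = 3) and 9.77 ± 0.26 (n = 3). In stage II the difference from control was 0.78 ± 0.18 SE (1.72-fold, 95% interval 0.38 to 1.18, limma adjusted p = 0.011), and in stage I it was 0.60 ± 0.18 (1.52-fold, 0.20 to 1.00, adjusted p = 0.53). The stages differed by 0.18 ± 0.21 (interval -0.28 to 0.64, adjusted p = 0.66), so the test that passed in one stage and missed in the other did not show that the stages differ. Without stage II replicate 1 the difference from control was 0.68 with an adjusted p of 0.054.

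Probe set 1423860_at repeated the pattern for Ptgds. Controls ran from 7.07 through 7.62 to 8.00, stage I read 7.93, 8.82 and 7.99, and stage II read 8.85, 8.68 and 8.08. Only stage I replicate 2 among the stage I arrays stood clear of the controls here, while all stage II arrays did. Stage II was 1.93-fold above control (0.95 ± 0.24 SE, adjusted p = 0.018). The call ended without stage II replicate 1 (0.79, adjusted p = 0.081) or replicate 2 (0.88, adjusted p = 0.056). Both probe sets were called, 2 of the 8 member probe sets, against 19.4% of all probe sets in that comparison.

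Hpgd encodes 15-hydroxyprostaglandin dehydrogenase, which inactivates prostaglandins by oxidation. Probe set 1419905_s_at read 9.64 to 10.26 in controls, with a median of 10.08. It read 10.73, 10.35 and 10.07 in stage I and 10.72, 10.62 and 9.95 in stage II. Both tumor groups thus held 2 ovaries above every control and 1 inside the control range, which was replicate 3 each time. The difference from control was 0.39 ± 0.19 SE in stage I (adjusted p = 0.84) and 0.44 ± 0.19 in stage II (95% interval 0.02 to 0.85, adjusted p = 0.14).

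The other Hpgd probe set, 1419906_at, read 7.14 to 8.12 in controls, 8.23, 8.17 and 7.86 in stage I, and 8.76, 8.65 and 7.88 in stage II. Here stage II replicates 1 and 2 were the highest arrays, with stage I replicates 1 and 2 also above every control, and control replicates 4 and 5 the lowest. The stage II difference was 0.73 ± 0.25 SE (1.66-fold, 0.19 to 1.26), just short of the threshold (adjusted p = 0.058). Without stage II replicate 3 both Hpgd probe sets passed, at 0.67 (adjusted p = 0.039) and 1.00 (adjusted p = 0.026), and 1419906_at also passed without control replicate 6 (0.81, adjusted p = 0.046).

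Ptger4 encodes EP4, a prostaglandin E2 receptor that raises cyclic AMP. Probe set 1424208_at held the controls within 7.41 to 7.59. Stage I read 7.99, 7.70 and 7.65, all above the controls, and stage II read 7.39, 7.63 and 7.13, all below the stage I arrays. Only stage II replicate 2 was above the controls. Stage I exceeded control by 0.25 ± 0.11 SE (adjusted p = 0.75). Stage II was lower than stage I by -0.40 ± 0.12 SE (95% interval -0.66 to -0.13, adjusted p = 0.055), a difference that passed without stage II replicate 2 (-0.52, adjusted p = 0.016), after quantile normalization (-0.41, adjusted p = 0.038) and with array medians centred (-0.41, adjusted p = 0.04).

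The dim Ptger4 probe set, 1421073_a_at, read 3.90 to 4.33 in controls, 4.84, 4.08 and 4.36 in stage I, and 4.35, 4.56 and 3.79 in stage II. Its stages overlapped, at a difference of -0.19 ± 0.20 SE (adjusted p = 0.62). Against control, stage II was above on this probe set (0.17 ± 0.18) and below on 1424208_at (-0.14 ± 0.11), so the Ptger4 probe sets gave no shared direction there.

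**Figure D2:**
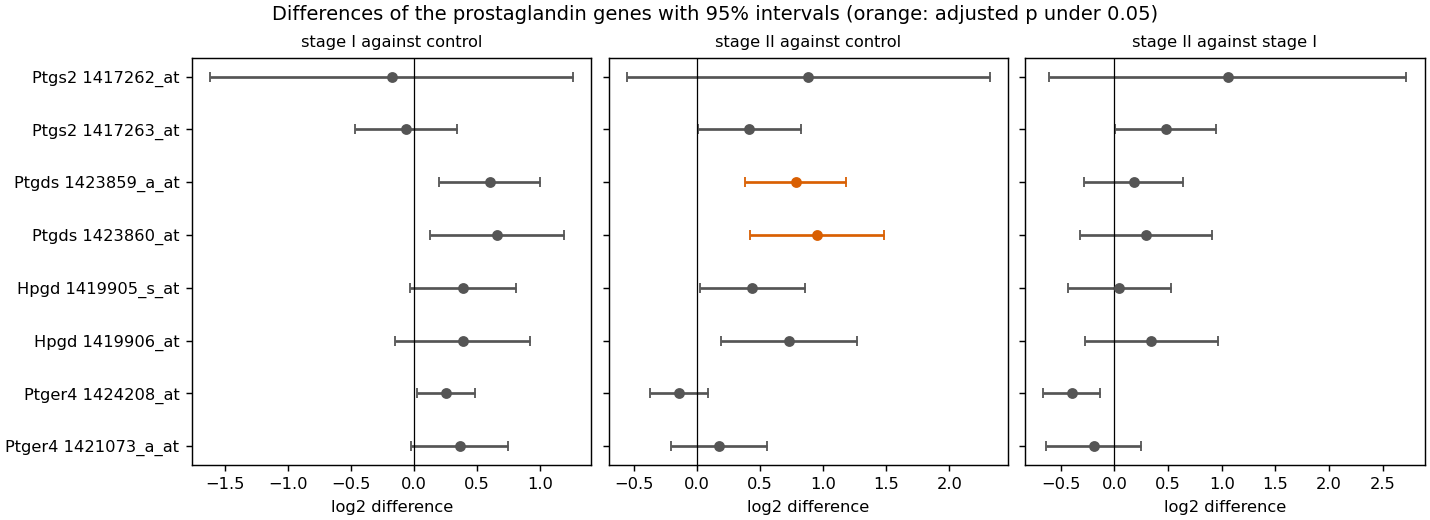
Log2 differences of the 8 probe sets with 95% intervals in the 3 comparisons; orange marks an adjusted p under 0.05. Only the 2 Ptgds probe sets in stage II against control are orange, and the interval of Ptgs2 1417262_at, -0.56 to 2.32, is the widest in that panel.

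The other genes of the pathway came from a list of 30, of which 18 were measured. Limma called 0 of 18 in stage I against control, with 2 at an unadjusted p under 0.05. It called 3 of 18 in stage II against control, 2 higher and 1 lower, and 3 of 18 in stage II against stage I, again 2 higher and 1 lower, beside the 20.4% and 11.8% of all genes. The median log2 difference of the list was 0.04, 0.05 and 0.02 in the 3 comparisons. The 2 higher genes were those for uptake and for a later step of breakdown, Slco2a1 and Ptgr1, in both comparisons.

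Slco2a1 encodes the prostaglandin transporter, the carrier that brings prostaglandins into cells where they can be oxidised. It read 8.96 to 9.51 in controls, 10.30, 9.55 and 9.55 in stage I, and 11.73, 11.86 and 12.41 in stage II. The 3 groups did not overlap, though stage I replicates 2 and 3 cleared the highest control only narrowly. Stage II was 6.88-fold above control (2.78 ± 0.19 SE, limma adjusted p = 1.5e-06) and 4.6-fold above stage I (2.20 ± 0.22, adjusted p = 0.00016). The other Slco2a1 probe set, 1420914_at, gave log2 differences of 3.07 and 2.60. Stage I stood 0.58 ± 0.19 SE above control (adjusted p = 0.59).

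Ptgr1 encodes a reductase that acts on 15-keto-prostaglandins, the products of the Hpgd enzyme, and on leukotriene B4. Controls ran from 9.85 to 10.18, stage I read 10.26, 10.12 and 10.01, and stage II read 10.75, 10.86 and 11.49. Stage I lay with the controls, and all of stage II lay above both. Stage II was 1.98-fold above control (0.99 ± 0.14 SE, adjusted p = 0.00041) and 1.87-fold above stage I (0.90 ± 0.16, adjusted p = 0.0049). The difference between the stages had an adjusted p of 0.054 when those 6 arrays were fitted alone.

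**Figure D3:**
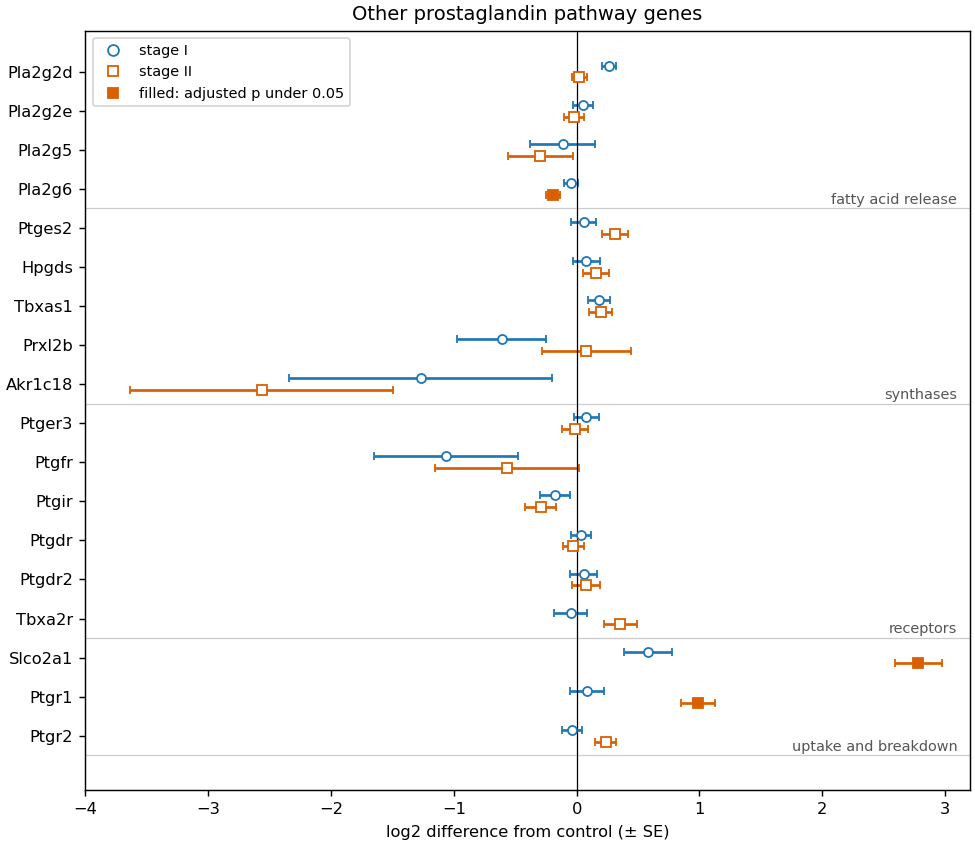
Log2 differences from control, ± SE, of the 18 other pathway genes ordered by role; circles are stage I, squares are stage II, and filled symbols passed the test. Slco2a1 at 2.78 and Ptgr1 at 0.99 are filled to the right in stage II, and Pla2g6 at -0.19 is filled to the left.

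The 2 genes called lower were phospholipases A2, and their differences were small. Pla2g6, a calcium-independent phospholipase, read 7.79 to 7.92 in controls and 7.60, 7.76 and 7.65 in stage II (-0.19 ± 0.06 SE, adjusted p = 0.041). Its other probe sets had differences of 0.02 and 0.03, and the call ended without any 1 of 8 arrays, which were control replicates 1, 3, 4, 5 and 6, the first of stage I, and the first and the third of stage II (highest adjusted p = 0.16). Pla2g2d, a secreted phospholipase, read 5.43 to 5.62 in controls, 5.87, 5.77 and 5.76 in stage I and 5.55, 5.55 and 5.57 in stage II. Stage I thus lay above both other groups, and stage II was lower than stage I by -0.24 ± 0.07 SE (adjusted p = 0.041). That call ended without control replicate 5, without any stage I array and without any stage II array (adjusted p up to 0.11).

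Of 5 measured terminal synthases limma called 0 in any of the 3 comparisons, and 2 had an unadjusted p under 0.05 in stage II against control, as 33.5% of all genes did. Ptges2, a prostaglandin E synthase, had a stage II difference of 0.31 ± 0.10 SE (adjusted p = 0.052). Akr1c18 is best known as the luteal enzyme that inactivates progesterone and can also make prostaglandin F2 alpha. It read 10.47 to 13.59 in controls, 7.96, 11.66 and 13.25 in stage I, and 10.88, 10.61 and 7.48 in stage II. Stage I replicate 1 and stage II replicate 3 were far below every other ovary, and control replicates 1 and 4 were the highest controls. The stage II difference was -2.57 ± 1.07 SE (adjusted p = 0.12), and -1.48 without stage II replicate 3. It passed without stage I replicate 1 (adjusted p = 0.045).

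Of 6 measured receptors other than Ptger4 limma likewise called 0, with 2 at an unadjusted p under 0.05 in stage II against control, a share near that of all genes. Ptgfr encodes the prostaglandin F2 alpha receptor, which corpora lutea carry. It read 10.60 to 12.23 in controls, 8.71, 10.43 and 11.70 in stage I, and 11.64, 10.52 and 10.16 in stage II. Control replicates 1 and 4 were at the top and stage I replicate 1 at the bottom. Its differences were -1.06 ± 0.59 SE in stage I (adjusted p = 0.89) and -0.57 ± 0.59 in stage II (adjusted p = 0.56). Tbxa2r, the thromboxane receptor, differed by 0.36 ± 0.13 SE in stage II (adjusted p = 0.084).

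**Figure D4:**
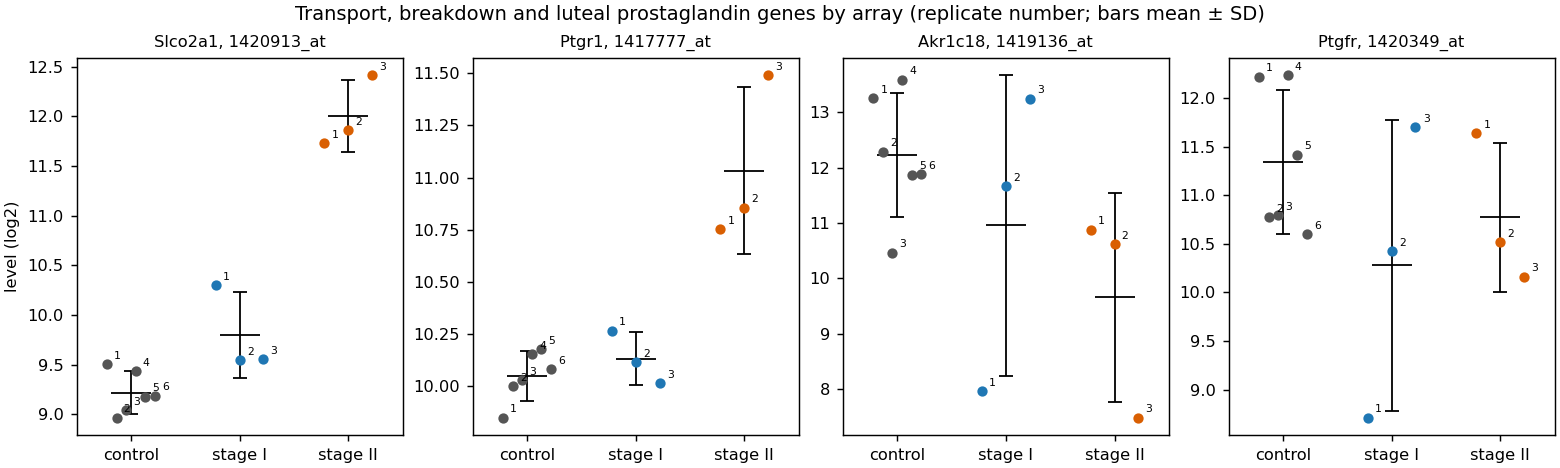
Log2 levels of Slco2a1, Ptgr1, Akr1c18 and Ptgfr on every array with mean ± SD; numbers beside the points are replicates. Stage II stands above the other groups for Slco2a1 (11.73 to 12.41) and Ptgr1 (10.75 to 11.49), while Akr1c18 and Ptgfr overlap between all groups.

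The lipoxygenase and leukotriene branch, which uses the same arachidonic acid, had 9 of 13 listed genes measured. Alox12, an arachidonate lipoxygenase, was the 1 gene called, at 1.58-fold above control (0.66 ± 0.16 SE, adjusted p = 0.012) and 1.78-fold above stage I (0.83 ± 0.18, adjusted p = 0.013) in stage II, so 1 of 9 genes was called beside 20.4% and 11.8% of all genes. Its dim second probe set, 1422700_at, differed by 0.10 and 0.20 and was not called. The call against control ended without stage II replicate 3 (adjusted p = 0.054), and that against stage I without stage I replicate 2 (adjusted p = 0.058) or replicate 3 (adjusted p = 0.053).

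Of 12 listed cumulus expansion and ovulation genes 7 were measured. In stage I against control 1 was called, Pgr, the gene for which the PgrBLsL allele is named. In stage II 2 were called, both higher, against control and again against stage I, beside the 20.4% and 11.8% of all genes. One was Pgr itself. The other was Vcan, the matrix proteoglycan versican, at 2.45-fold above control (1.30 ± 0.20 SE, adjusted p = 0.00081). Between the stages Vcan was 1.96-fold higher in stage II (adjusted p = 0.020). On this probe set, 1427256_at, the difference between the stages missed the threshold without the third stage II array (adjusted p = 0.093). It also missed without 1 of 2 stage I arrays, replicates 2 and 3 (adjusted p up to 0.065). The other Vcan probe sets, 1421694_a_at and 1427257_at, were 1.81 and 1.44 above control in stage II. Against stage I they were 1.27 and 1.03 higher (limma adjusted p = 0.0034 and 0.0053).

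No member met the rule for naming genes of like pattern, which asked for a called difference of at least 2-fold. After the values were seen, Ereg and Tnfaip6 were set beside Ptgs2. Ereg encodes epiregulin, an EGF-like factor of the ovulatory cascade. Its deviations from the control mean lay nearest to those of Ptgs2 over the 12 arrays. The mean absolute difference was 0.416, against a mean absolute deviation of Ptgs2 itself of 0.90. Fosl1 at 0.421 and Srxn1 at 0.455 lay nearly as close and were not followed further. Because Ereg was picked by its nearness on these same arrays, a shared order was partly set by the choice and is no separate evidence. In control replicates 1 to 6 Ereg read 5.91, 7.19, 5.43, 5.14, 6.27 and 8.07, which ranks the 6 controls as Ptgs2 does. Stage I read 5.73, 6.81 and 6.08, also in the order of Ptgs2. Stage II read 6.85, 6.61 and 5.18, the reverse of the order of Ptgs2, so that stage II replicate 3 had high Ptgs2 and low Ereg.

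Tnfaip6, a matrix protein that prostaglandin E2 helps to induce in cumulus cells, was also highest in control replicates 6 and 2, at 7.13 and 6.93. The other controls read 4.25 to 5.41, and stage I read 3.77, 6.22 and 4.98. In stage II it read 3.98, 3.77 and 3.90, below every control, while Ptgs2 in the same ovaries was in the upper part of its control range. The stage II difference of Tnfaip6 was -1.55 ± 0.69 SE (95% interval -3.05 to -0.06), and it did not pass the test (adjusted p = 0.14). Among the other measured ovulation genes, control replicates 6 and 2 were also the highest controls for the dim Btc. They were not for Has2, Ptx3, Pgr or Vcan.

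**Figure D5:**
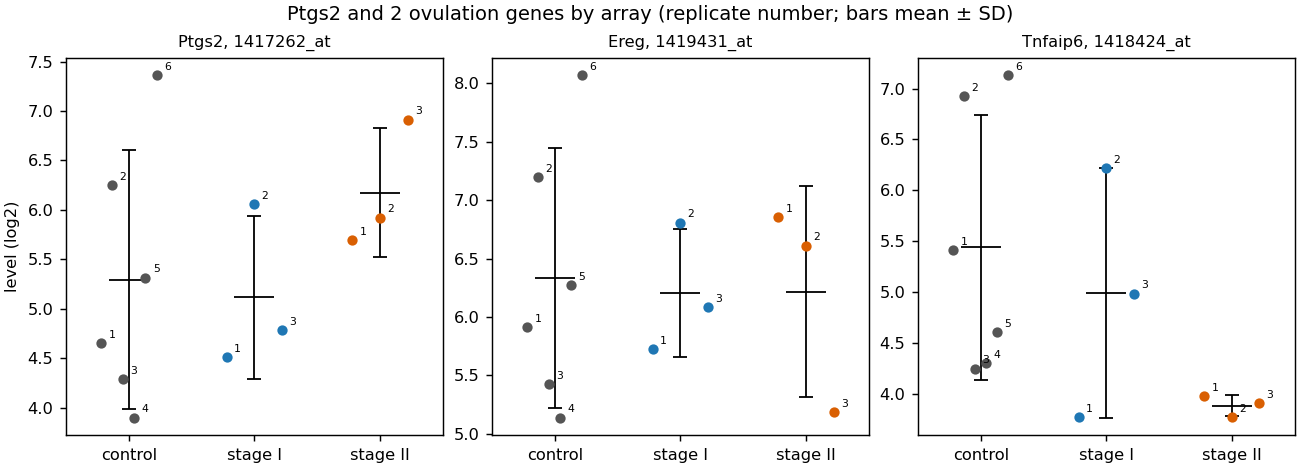
Log2 levels of Ptgs2, Ereg and Tnfaip6 on every array with mean ± SD; numbers beside the points are replicates. Control replicates 6 and 2 are the 2 highest controls in all 3 genes, and Tnfaip6 lies between 3.77 and 3.98 in stage II. Ereg was chosen for its nearness to Ptgs2 on these arrays, and Tnfaip6 after the values were seen.

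Markers of other cells moved between the groups too, and in whole ovaries fewer cells of a type and less RNA per cell cannot be told apart. In stage II against control all 6 measured granulosa markers, all 5 theca and interstitial markers and all 7 oocyte markers were called lower. Of all genes 10.9% were called lower and 9.59% higher in that comparison, the shares beside which the marker counts stand. The summed level of the granulosa list was 14.79 to 15.15 in controls, 14.92 to 15.14 in stage I and 13.71 to 14.58 in stage II on the log2 scale. Of 6 macrophage markers 4 were called higher, with sums of 12.46 to 12.74, 12.46 to 13.21 and 12.92 to 13.17. Of 3 measured markers of surface epithelium and mesothelium 1 was called higher, Krt8, and the sums were 9.16 to 10.52, 10.29 to 11.01 and 12.25 to 13.56. Those stage II sums were nearly those of Krt8 alone, while Krt7 of the same list differed by -0.40 ± 0.37 SE (adjusted p = 0.50). Krt19, the remaining marker, had a mean of 8.06 in controls and 9.02 in stage II and was not called. Of 10 smooth muscle and pericyte markers 5 were called lower, with sums of 13.99 to 14.11, 13.70 to 13.96 and 13.39 to 13.65. Another 4, Myh11, Rgs5, Cspg4 and Notch3, were above control by up to 0.16 without a call, so the list did not move as a whole. The 7 endothelial markers, 5 mast cell markers and 4 oviduct markers had 0 calls by limma in stage II, with 2, 0 and 0 at an unadjusted p under 0.05. The oviduct sums varied widely within each group, at 7.52 to 12.78, 7.40 to 11.99 and 7.57 to 11.73. The oviduct marker Ovgp1 was highest in control replicate 5, stage I replicate 2 and stage II replicate 2 (12.70, 11.77 and 11.58). The luteal list, which shares Akr1c18 and Ptgfr with the pathway list, had 1 call of 5, Parm1. Parm1 was higher by 3.05 ± 0.24 SE (adjusted p = 3.3e-06), and the other 4 markers were below control without a call. Of 4 adipocyte markers Adipoq was called lower (-3.34 ± 0.66 SE, adjusted p = 0.0041) and Fabp4 higher (2.47 ± 0.45, adjusted p = 0.0025). The adipocyte sums were 8.91 to 11.23, 10.58 to 10.94 and 11.56 to 12.23, in stage II nearly those of Fabp4 alone (11.46 to 12.16). The mean deviation of the 4 markers in stage II was -0.20, -0.17 and -0.48, inside the control range of -1.04 to 0.56. Of 6 neutrophil markers 1 was called, Camp, higher by 0.42 ± 0.10 SE (adjusted p = 0.012). The macrophage score, the mean deviation of the 6 markers from their control means, was -0.096 to 0.10 in controls, 0.86, -0.0037 and 0.46 in stage I replicates 1, 2 and 3, and 0.70, 0.61 and 0.94 in stage II, where every array was above every control. Among the 6 macrophage markers Cd14 rose the most, at 5.68-fold above control in stage II, and weighed most in that score. Csf1r, C1qa and C1qb were 1.39-, 1.44- and 1.41-fold above control. Itgam and Lyz2, at 1.24- and 1.15-fold, were not called. The part of any of the listed cell types in the Ptgds, Slco2a1 and Ptgr1 results was not tested. Without the 3 arrays with the highest oviduct marker Ovgp1, an omission chosen after the values were seen, the stage II differences of the Ptgds probe sets were 0.78 and 0.92 (adjusted p = 0.023 and 0.043).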

How the data were processed

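The authors deposited 1 log2 value per Affymetrix probe set and array. How probe sets were summarised and normalized is not stated in the labels read here. The log2 scale was read from the values, and the nearly equal array medians show that arrays had been scaled to each other before deposit. The precision is limited by 12 arrays. The labels call the replicates biological and do not say how ovaries map to mice. The annotation gave 1 symbol to 14674 probe sets, several to 427 and none to 1275, and Entrez identifiers changed 0 symbols. All 16376 probe sets were fitted with limma 3.58.1 in R 4.3.3 (1 mean per group, eBayes), and p-values were adjusted over all of them by the Benjamini-Hochberg method, with a threshold of 0.05. A gene was counted by its probe set with the highest mean. Intervals are 95% intervals of the fit. On data simulated with independent normal noise, 200 of the 16376 probe sets were changed in stage II per run. Of those changed by a log2 of 1, 94.5% were recovered, and of those changed by 0.5, 65%. The arrays themselves had 3174 calls in stage II against control, so their adjustment for multiple tests differs from the simulated one. The shares are averages over probe sets and do not hold for one as variable as Ptgs2 1417262_at (SE 0.66).

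The members and lists were chosen with earlier results of these data known. Genes outside the members were named when called, or as the 4 uncalled pathway genes with the largest stage II differences, except where the text says otherwise. The alternatives were quantile normalization, centred medians, a filter on the dimmest 25%, 1 probe set or the mean of probe sets per gene, fits limited to the compared groups, weights per array, a variance prior that was trended and robust, the replicate number as a block, and each array left out. Chosen after seeing the data were leaving out control replicates 1 and 4 together and the 3 arrays with the highest Ovgp1.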

Additional observations from a re-analysis of the deposited data

Results flagged for a closer look

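Each group of 6 controls was searched for a single array far from the rest, which chance alone finds in about 1 in 20 such searches, and 0 of the 8 probe sets of Ptgs2, Ptgds, Hpgd and Ptger4 had one. The search also covered 18 other pathway, 9 leukotriene and 7 ovulation genes. Control replicate 5 was far above the other controls for Alox15, a lipoxygenase, at 7.06. Control replicate 4 was far below them for Vcan, at 9.73. Among so many genes, such a count is about what the share found by chance alone gives, which does not settle either value. Control replicate 5 also had the highest Ovgp1 of all arrays, at 12.70. Stage I replicate 2 and stage II replicate 2, the next highest in Ovgp1, had the highest Alox15 of their groups (5.52 and 5.86). A link between Alox15 and oviduct in the sample was not tested.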

How the results depend on the processing

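The rises of Slco2a1 in stage II against control and against stage I, and of Ptgr1 against control, passed under all 23 alternatives, with adjusted p up to 0.0013, 0.020 and 0.013. Ptgds on 1423859_a_at passed in 22 of 23. Stage I counts stayed at 0 for members and other pathway genes. For the members in stage II against control the count of 1 became 2 with array weights, and lay between 0 and 2 when single arrays were left out. In stage II against stage I the count of 0 became 1, Ptger4, lower, with quantile normalization, centred medians, the dim filter and array weights, and lay between 0 and 1 when single arrays were left out. The 3 other pathway genes in that comparison became 1 when those groups were fitted alone, and lay between 2 and 4 over single arrays left out, as did the 3 against control. The cause was not tested.

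Uncalled differences changed sign as follows. Pla2g2d in stage II was -0.011 after quantile normalization, Ptger4 was 0.014 with the mean of its probe sets, and Ptgfr was 0.083 with array weights. Ptgs2 in stage I was 0.055 and 0.031 on its 2 probe sets with the replicate block. Alox12 in stage I was 0.006 without control replicates 1 and 4, and Hpgd between stages was -0.064 without the 3 arrays highest in Ovgp1. Over the fits without 1 array, stage I differences ran from -0.64 to 0.24 and from -0.29 to 0.10 for Ptgs2, from -2.41 to 0.23 for Akr1c18 and from -1.06 to 0.16 for Tnfaip6, and differences between stages from -0.37 to 0.027 for Ptger4 1421073_a_at, from -0.29 to 1.20 for Ptgfr and from -0.11 to 0.29 for Hpgd 1419905_s_at.

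The labels do not say that replicate numbers pair arrays across groups. Deviations of same-numbered arrays from their group means correlated between -0.15 and 0.21, which cannot settle whether some arrays were paired. With the replicate block the member counts stayed at 0, 1 and 0, and Pla2g6 and Pla2g2d were no longer called (adjusted p = 0.25 and 0.12). Over all probe sets, calls in stage II against control fell from 3174 to 971 higher and 530 lower with the block. In that fit, controls whose replicate number no tumor array shares add nothing to the differences, so fewer arrays bear on each. In stage II against stage I, 983 higher and 806 lower became 957 and 1215 after quantile normalization, 1485 and 1471 with array weights, 448 and 111 with those groups alone, and 605 and 202 with the block. Probe sets near the bottom of the range, such as 1417263_at and 1421073_a_at, have no measured background.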
